A study of Mus musculus with 4 samples.

Results

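The 35 genes described here encode the peroxide-reducing enzymes, the thioredoxin and glutathione systems and the Nrf2 pathway of mouse CD4+ T cells. They were taken by gene symbol from a table of 34745 genes, and each of the 35 symbols stood on 1 row. The study sequenced RNA of 4 groups of splenic CD4+ T cells from wild-type C57BL/6 mice, with 1 library per group. Th17 cells and Treg cells had been kept for 3 days under conditions that direct CD4+ T cells to the interleukin-17-producing and to the regulatory fate. Th0 cells had been stimulated for 3 days with αCD3/CD28, which engages the T cell receptor and its costimulator, and naive cells were CD4+ T cells taken from the spleen without culture. Which cytokines directed the Th17 and Treg fates, how old the mice were, their sex and whether cells of several mice were pooled is not stated in the labels. Since each group had 1 library, no difference below has a replicate check, no test between conditions was possible, and every interval is a 95% interval that covers counting error only.

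The enzymes form connected chains of electron transfer. Superoxide dismutases turn superoxide into hydrogen peroxide, which is removed by catalase, by glutathione peroxidases and by peroxiredoxins. Peroxiredoxins oxidised in this reaction are mostly reduced again by thioredoxin, which thioredoxin reductases recharge with electrons from NADPH. Glutathione is made in a first step by glutamate-cysteine ligase, of the catalytic subunit Gclc and the modifier subunit Gclm, and then by glutathione synthetase, and glutathione reductase returns its oxidised form to use. Nrf2, encoded by Nfe2l2, is a transcription factor that induces many of these genes, and Keap1 holds it in check by marking it for degradation. In mouse T cells, glutathione synthesis is known to be needed for growth after activation, and Gpx4 to protect against death by lipid peroxidation.

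The libraries held between 10256627 and 12414372 counts, and of the 35 members 34 had at least 10 counts in Th17, 35 in Treg, 33 in Th0 and 35 in naive cells. The T cell genes summed to 3897 CPM in Th17, 4288 in Treg, 4264 in Th0 and 3636 in naive cells, and none of the 9 was at 0 in any library. Genes of other blood cells were high in the naive library. The macrophage and monocyte genes summed to 34.8 CPM in Th17, 47.6 in Treg, 32.2 in Th0 and 3974 in naive cells, and the red pulp macrophage genes to 8.38 CPM in Th17, 17.5 in Treg, 0.916 in Th0 and 1502 in naive cells. The neutrophil sums were 11.4 CPM in Th17, 5.59 in Treg, 1.95 in Th0 and 1657 in naive cells, the B cell and plasma cell sums 216 CPM in Th17, 105 in Treg, 451 in Th0 and 3901 in naive cells, and the dendritic cell sums 37.3 CPM in Th17, 45.5 in Treg, 14.0 in Th0 and 348 in naive cells. Erythroid genes summed to 2.59 CPM in Th17, 1.89 in Treg, 2.40 in Th0 and 222 in naive cells, platelet genes to 9.45 CPM in Th17, 8.30 in Treg, 4.92 in Th0 and 32.9 in naive cells, stroma and endothelium genes to 61.2 CPM in Th17, 46.1 in Treg, 49.5 in Th0 and 178 in naive cells, and CD8 T and NK cell genes to 209 CPM in Th17, 267 in Treg, 125 in Th0 and 143 in naive cells. Of the CD8 T and NK cell sum, Gzma alone gave 156 CPM in Th17, 190 in Treg, 44.2 in Th0 and 12.5 in naive cells. By the 2-fold rule below, Gzma was the 1 gene of these 8 that was higher in Th17 than in naive cells, and 5 were lower. In naive cells no gene of these lists was at 0, whereas Cd209a and Siglech of the dendritic cells, Elane of the neutrophils, Gp9 of the platelets and Treml4 of the red pulp macrophages were at 0 in each cultured library. The part of these cells in the differences from the naive library below was not tested. In such bulk samples, fewer cells of a type and less RNA per cell cannot be told apart.

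A level is given in CPM, the count divided by library size after scaling with TMM factors, which adjust for the few genes that take a large share of a library. Calls were made among genes with at least 10 counts in 1 of the 2 libraries. To be called, a gene needed a log2 ratio of CPM + 1 of at least 1 in size (2-fold), with a counting interval that excluded equality. Folds are ratios of CPM without the added 1, and the numbers after a fold in parentheses are its counting interval. An interval beside a log2 ratio is also that of the ratio without the added 1. For low genes it is therefore not centred on the log2 ratio beside it. A fold against 0 counts was taken against 3 counts and is written as "at least", with the lower limit that counting error in both libraries allows after it. Where a member's call depended on the scaling, the number of scalings that gave it is stated, out of TMM, DESeq2 size factors, upper quartiles and library totals. Prdx1, Prdx2, Prdx5, Txn1, Txnip, Gpx4, Sod1, Sod2, Gstp1 and Sqstm1 have a near-identical transcript of another gene, so for these 10 members the split of reads is uncertain. In Th17 over Th0, 4 of 34 members tested were higher (11.8%, against 20.1% of all genes tested) and 8 were lower (23.5%, against 12.4%). In Treg over Th0, 2 of 35 were higher, against 20.2% of all genes, and 3 were lower, against 12%. Of the 2, Mgst1 (18 counts in Treg, 0 in Th0) passed the count filter only through Treg. In Th17 over Treg, 0 were higher and 1 was lower, where all genes gave 1.91% and 1.24%. The 12 members called in either direction in Th17 over Th0 were a share near the background of 32.5%, and more of them were lower than higher, unlike all genes. With library totals 6 members were higher and 2 lower, and all genes moved the same way, to 26.5% higher and 6.92% lower. The 5 members called in Treg over Th0 were a smaller share than the background of 32.2%, and the 1 in Th17 over Treg was near 3.15%.

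Over naive cells, the Th17 library had 5 of 35 members higher and 9 lower, against 15.5% and 17.7% of all genes. The Treg library had 5 higher and 7 lower, against 14.9% and 16.9%. The Th0 library had 9 higher and 8 lower, against 18.5% and 27.2%. In either direction the members called were 14 in Th17, 12 in Treg and 17 in Th0, beside 33.1%, 31.8% and 45.7% of all genes over naive, so the shares lay near the background. The median log2 ratio of the members was -0.14 in Th17 over Th0 (0.09 over all genes tested), -0.12 in Treg over Th0 (0.08), -0.10 in Th17 over Treg (-0.0013), -0.23 in Th17 over naive (-0.01), -0.07 in Treg over naive (-0.02) and -0.16 in Th0 over naive (-0.13). Comparisons that share the Th0 or the naive library are not independent of each other. Scaling to library totals moved the median of all genes by 0.28 in Th17 over Th0, 0.31 in Treg over Th0 and -0.24 in Th0 over naive. With library totals the members' medians were 0.16, 0.21 and -0.43 in these comparisons, against 0.36, 0.39 and -0.38 over all genes tested, so in Th17 and Treg over Th0 they changed sign and stayed below all genes. Among all genes called, library totals raised the share that was higher to 79.3% in Th17 over Th0, against 61.9% with TMM, and to 81.8% against 62.7% in Treg over Th0. In Th0 over naive this share was 29.6% against 40.5%.

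**Figure D1:**
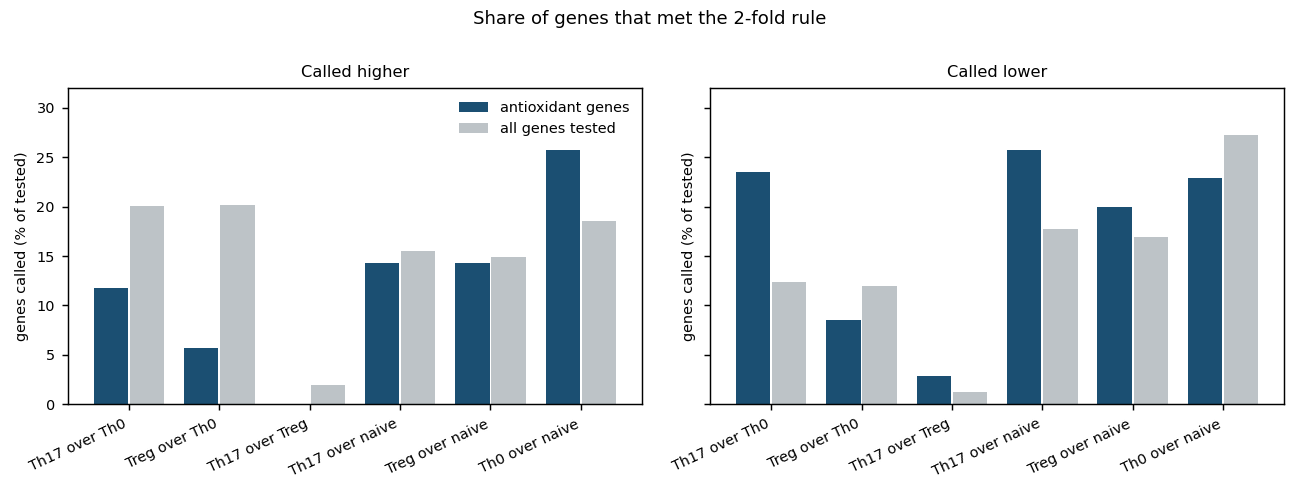
Percentage of genes tested that met the 2-fold rule in each comparison (x axis), for the antioxidant genes (dark bars) and for all genes tested (grey bars), called higher on the left and lower on the right. The members' share of lower calls in Th17 over Th0 was 23.5% beside 12.4% for all genes, and their share of higher calls in Treg over Th0 was 5.71% beside 20.2%.

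Among the regulators, Nfe2l2 (chromosome 2, 75675513 to 75704641, GRCm38) had 102 CPM in Th17, 79.7 in Treg, 135 in Th0 and 97.0 in naive cells. The 4 libraries lay within 1.69-fold of each other, and no comparison called the gene. Keap1 (chromosome 9, 21229730 to 21239332) had 91.8 CPM in Th17, 81.8 in Treg, 42.4 in Th0 and 77.7 in naive cells, so Th0 was the low library and the other 3 lay close together. It was 2.17-fold higher (1.93 to 2.44) in Th17 than in Th0, called under all 4 scalings. In Treg it was 1.93-fold higher (1.71 to 2.18), which met the rule under 2 of the 4. In Th0 over naive it was called lower under 1 of the 4. An antisense gene, Gm16754, overlaps Keap1, and as the strand setting of the counting is not given, their reads could not be told apart. Gm16754 had 1270 counts in Th17, 429 in Treg, 41 in Th0 and 2 in naive cells. Among the cultures this is the same order as that of Keap1, and in the naive library the order differs. The part of Gm16754 reads in the Keap1 level was not tested.

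Nfe2l1, a related transcription factor that induces proteasome genes, had 74.0 CPM in Th17, 57.5 in Treg, 75.1 in Th0 and 148 in naive cells. It was highest in naive cells and 2.57-fold lower (2.35 to 2.82) in Treg than there. In Th17 and Th0 its log2 ratios over naive were -0.99 and -0.97, just short of 2-fold, and it was called lower in Th17 under 1 and in Th0 under 2 of the 4 scalings. Sqstm1, the autophagy receptor p62, which binds Keap1, had 176 CPM in Th17, 185 in Treg, 315 in Th0 and 251 in naive cells and was called in no comparison.

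Of the enzymes used as readouts of Nrf2, Nqo1, a quinone reductase, was near the detection limit in all libraries, with 21 counts in Th17, 14 in Treg, 13 in Th0 and 12 in naive cells. Its neighbours in the order of levels did not differ beyond counting error, and 12 to 21 counts give no basis for an order. Srxn1, the sulfiredoxin that repairs over-oxidised peroxiredoxins, was similarly scarce, with 16 counts in Th17, 19 in Treg, 4 in Th0 and 46 in naive cells. It was 3.08-fold lower (1.71 to 5.83) in Th17 and 8.20-fold lower (2.99 to 31.4) in Th0 than in naive cells, on few counts. Against Th0 it passed the count filter only through naive cells. In Treg over naive, at 1.71 CPM and 3.76 CPM, its log2 ratio of CPM + 1 was -0.81, under the 2-fold rule. The interval of its log2 ratio without the added 1 was -1.99 to -0.33. With a pseudocount of 0.25 CPM it was called lower in this comparison. In Treg over Th0 it was called higher under 1 of the 4 scalings.

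Hmox1 (chromosome 8, 75093591 to 75100596), which encodes haem oxygenase 1, had 31.5 CPM in Th17, 28.6 in Treg, 14.0 in Th0 and 718 in naive cells. The naive library stood far above the cultured ones, and the gene was 22.8-fold lower (20.6 to 25.2) in Th17, 25.1-fold lower (22.5 to 28.2) in Treg and 51.4-fold lower (43.0 to 62.0) in Th0 than in naive cells. Haem oxygenase is abundant in red pulp macrophages, which degrade red cells, and the genes of these macrophages were high in the same library. Spic, their transcription factor, had 0.838 CPM in Th17, 1.26 in Treg, 0.114 in Th0 and 84.4 in naive cells, and Slc40a1, the iron exporter, had 1.45 CPM in Th17, 0.812 in Treg, 0.114 in Th0 and 358 in naive cells. Among the cultured libraries, Hmox1 was 2.26-fold higher (1.84 to 2.79) in Th17 and 2.05-fold higher (1.66 to 2.54) in Treg than in Th0. The Th17 difference met the rule under all 4 scalings and the Treg difference under 2 of the 4. The red pulp macrophage genes summed to 8.38 CPM in Th17, 17.5 in Treg and 0.916 in Th0. Like Hmox1 they were lowest in Th0, but their sum was higher in Treg than in Th17, where Hmox1 did not differ beyond counting error. Of the sum, Cd5l alone gave 3.35 CPM in Th17, 10.7 in Treg and 0 in Th0. The part of these macrophages was not tested.

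Many Nrf2 targets carry an antioxidant response element near their start, so the RefSeq promoters (GRCm38.p6) of the members were searched for its core, TGACNNNGC, on both strands of the 250 bases before the start. Promoters of 30 of the 35 members were matched, and 6 of the 30 held the core, against 11.5% of all 27025 genes in the promoter table. No promoter was matched for Prdx6, Gclc, Gsr, Hmox1 and Gsta4, so these were not searched. The 6 stretches are shown because they let the members with the core be set beside their levels, each is written on the gene's strand, and capitals mark the core or its reverse complement.
Prdx1: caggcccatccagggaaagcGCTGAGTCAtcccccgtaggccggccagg
Txnrd1: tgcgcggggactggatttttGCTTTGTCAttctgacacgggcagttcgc
Gclm: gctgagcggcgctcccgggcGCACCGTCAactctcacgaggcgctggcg
Mgst1: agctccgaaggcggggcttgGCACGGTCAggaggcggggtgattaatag
Nfe2l2: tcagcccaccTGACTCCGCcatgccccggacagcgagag
Sod1: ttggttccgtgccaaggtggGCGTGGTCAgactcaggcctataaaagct
These lie at chr4:116685446-116685494 (plus strand), chr10:82859094-82859142 (plus), chr3:122245403-122245451 (plus), chr6:138140451-138140499 (plus), chr2:75704875-75704913 (minus) and chr16:90220686-90220734 (plus). The core in Prdx1 overlaps a match to the AP-1 motif TGANTCA, a motif held by 7.82% of all genes in the table and by Glrx, Gstp1, Mgst2, Prdx1 and Srxn1 among the members. The E-box CACGTG was held by Prdx4 alone of the 30 members, and by 6.86% of all genes. The 6 members with the antioxidant core did not share an order of levels. Prdx1, Gclm and Mgst1 were highest in naive cells, Txnrd1 in Th17, and Nfe2l2 and Sod1 in Th0.

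**Figure D2:**
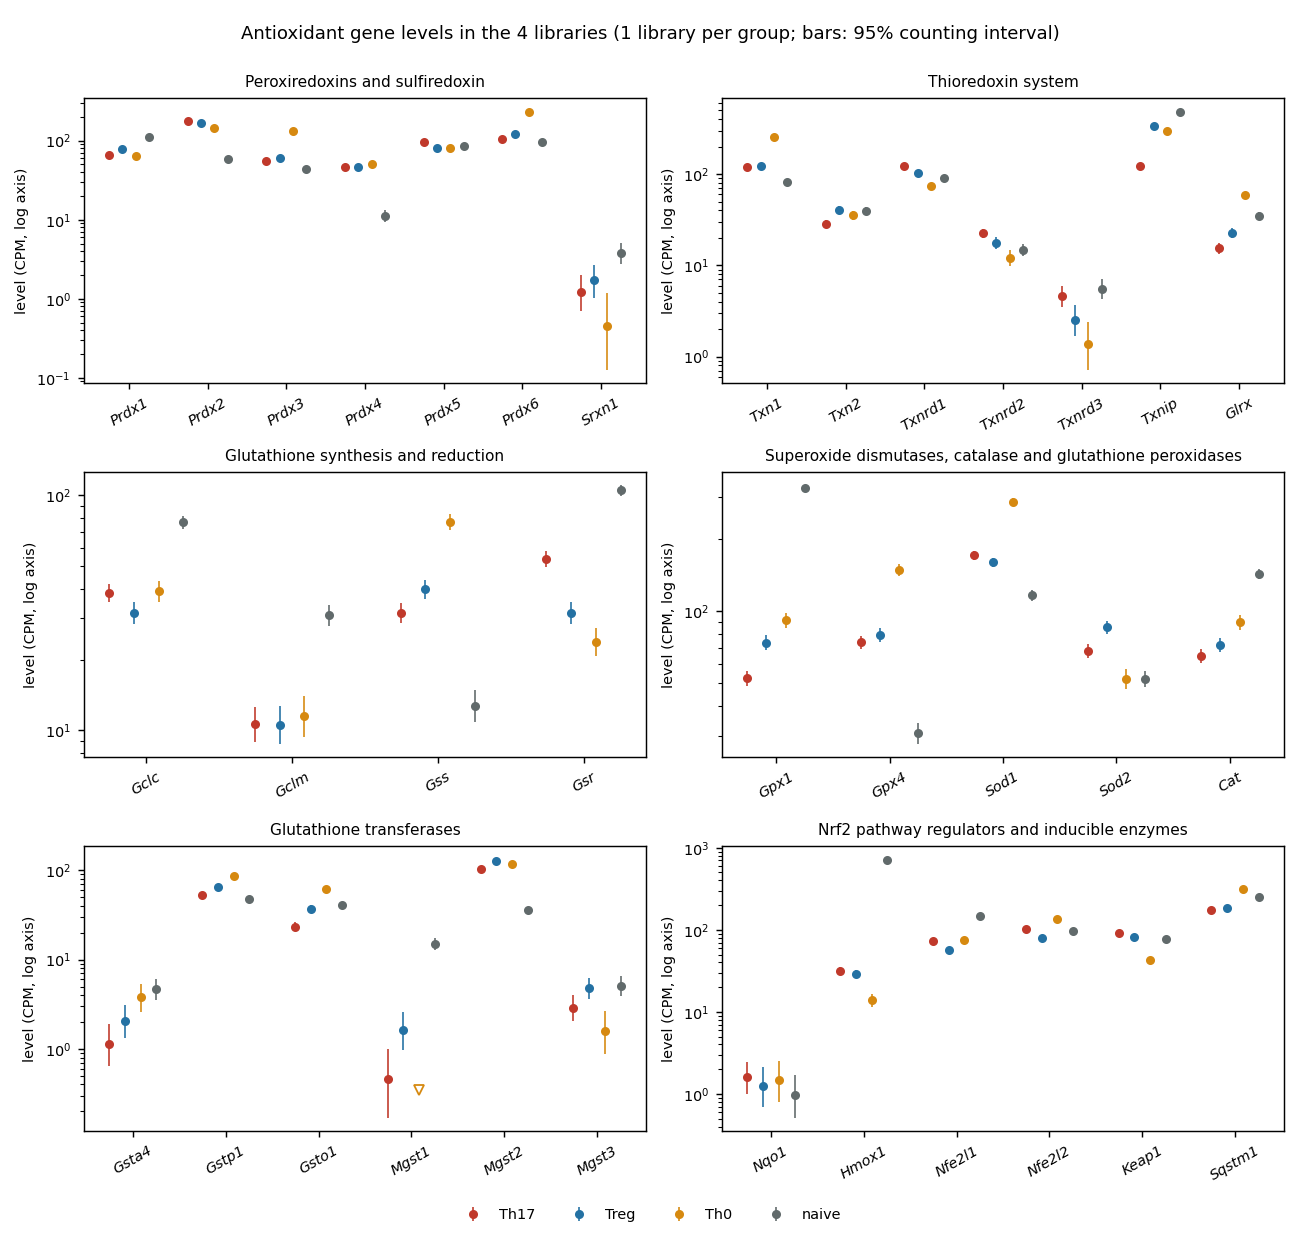
Level of each of the 35 members (CPM, log axis) in Th17, Treg, Th0 and naive cells, by role, with 1 library per point and 95% counting intervals as bars. The open triangle marks 3 counts for Mgst1 in Th0, where no count was found, and Hmox1 in naive cells stands at 718 CPM above 14.0 to 31.5 CPM in the cultures.

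Prdx2, an abundant cytosolic peroxiredoxin, had 177 CPM in Th17, 169 in Treg, 143 in Th0 and 59.0 in naive cells, and Prdx4, the peroxiredoxin of the endoplasmic reticulum, had 46.4 CPM in Th17, 45.9 in Treg, 50.03 in Th0 and 11.1 in naive cells. Both were low in naive cells, and the cultures lay close together. Prdx2 was 3.00-fold higher (2.76 to 3.27) in Th17, 2.87-fold higher (2.63 to 3.13) in Treg and 2.42-fold higher (2.21 to 2.66) in Th0 than in naive cells. The Th0 difference met the rule under 3 of 4 scalings. Prdx4 was 4.18-fold higher (3.46 to 5.07), 4.13-fold higher (3.41 to 5.03) and 4.51-fold higher (3.71 to 5.50) in the same order of cultures. Junb, which overlaps Prdx2 on the opposite strand, had 7620 counts in Th17, 4653 in Treg, 939 in Th0 and 23389 in naive cells. It was highest in naive cells, where Prdx2 was lowest, and among the cultures it had the same order as Prdx2. The part of Junb reads in the Prdx2 level was not tested.

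Prdx3, the mitochondrial peroxiredoxin, and Prdx6, which uses glutathione as its reductant, stood out in the Th0 library instead. Prdx3 had 55.1 CPM in Th17, 60.6 in Treg, 132 in Th0 and 44.3 in naive cells, and Prdx6 had 104 CPM in Th17, 121 in Treg, 228 in Th0 and 96.3 in naive cells. Prdx3 was 2.40-fold lower (2.19 to 2.64) in Th17 than in Th0, under 3 of the 4 scalings. Prdx6 was 2.19-fold lower (2.04 to 2.35), under 2 of the 4. In Treg, Prdx3 was 2.19-fold lower (1.99 to 2.41), met under 2 of the 4, and Prdx6 had a log2 ratio of -0.91 (interval -1.02 to -0.81). Over naive cells, Th0 had Prdx3 2.99-fold higher (2.70 to 3.32) and Prdx6 2.37-fold higher (2.20 to 2.55). For Prdx6 this held under 3 of 4 scalings.

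Prdx1, the other abundant cytosolic form, had 65.3 CPM in Th17, 77.8 in Treg, 64.7 in Th0 and 110.4 in naive cells. Naive cells had the highest level, and its log2 ratios over naive of -0.75 in Th17, -0.50 in Treg and -0.76 in Th0 did not reach 2-fold. In Th0 it was called lower under 1 of the 4 scalings. Prdx5, found in mitochondria, peroxisomes and cytosol, had 95.5 CPM in Th17, 81.2 in Treg, 81.3 in Th0 and 85.1 in naive cells, the narrowest range of the members at 1.18-fold. Per length, in the deposited FPKM, the 6 peroxiredoxins together had 149.8 FPKM in Th17, 157 in Treg, 169 in Th0 and 108 in naive cells. Prdx2 made up 23.7% in Th17, 22.1% in Treg, 13.6% in Th0 and 10.6% in naive cells of that sum, and Prdx1 11.3% in Th17, 13.1% in Treg, 7.96% in Th0 and 25.7% in naive cells. The share of Prdx3 was 26.3% in Th17, 28.3% in Treg, 45.1% in Th0 and 28.5% in naive cells, the largest of the family by this measure. This rank rests on the lengths behind the FPKM, 1478 nt for Prdx3 and 5276 nt for Prdx2. Such lengths exceeded the whole locus for some members, as for Prdx5 (3875 nt at 6906697 to 6910106), so the shares are uncertain. In CPM, Prdx2 was above Prdx3 in every library.

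**Figure D3:**
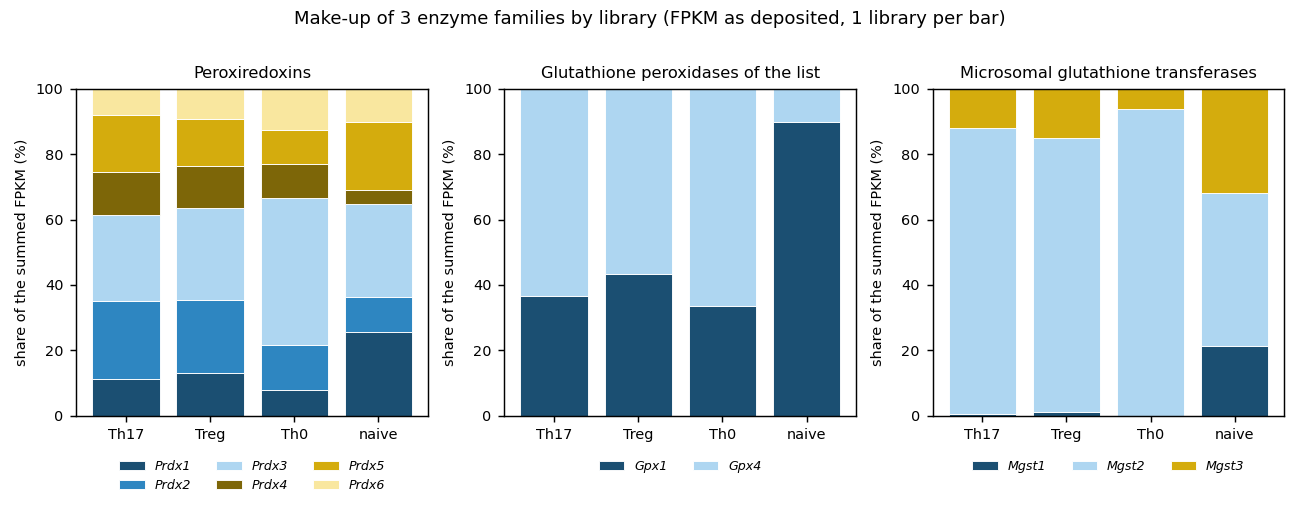
Share of the summed FPKM of a family (y axis, %) held by each gene in Th17, Treg, Th0 and naive cells, for the peroxiredoxins, the Gpx1 and Gpx4 pair and the microsomal glutathione transferases, with 1 library per bar. Gpx1 held 89.8% of its pair in naive cells and 33.6% to 43.2% in the cultures. Shares depend on the gene lengths behind the FPKM, which are uncertain.

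In the thioredoxin system, Txn1, the cytosolic thioredoxin (chromosome 4, 57943373 to 57956411), had 120.1 CPM in Th17, 123 in Treg, 252 in Th0 and 81.3 in naive cells. Th0 was high, Th17 and Treg did not differ beyond counting error, and naive cells were lowest. Txn1 was 2.10-fold lower (1.97 to 2.24) in Th17 and 2.06-fold lower (1.92 to 2.21) in Treg than in Th0, each under 2 of the 4 scalings, and 3.10-fold higher (2.88 to 3.35) in Th0 than in naive cells under all 4. Txn2, the mitochondrial thioredoxin, had 28.5 CPM in Th17, 40.4 in Treg, 35.5 in Th0 and 39.8 in naive cells and was called in no comparison.

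The reductases ran the other way among the cultures. Txnrd1, the cytosolic thioredoxin reductase, had 123 CPM in Th17, 102 in Treg, 73.5 in Th0 and 90.8 in naive cells, with log2 ratios over Th0 of 0.74 (interval 0.62 to 0.88) in Th17 and 0.47 (interval 0.33 to 0.61) in Treg. Neither met the rule, though the Th17 ratio did with library totals. Txnrd2, the mitochondrial reductase, had 22.3 CPM in Th17, 17.7 in Treg, 12.02 in Th0 and 14.8 in naive cells, the same order of libraries as Txnrd1, and it too was called in Th17 over Th0 with library totals alone. Txnrd3, a reductase best known from testis, had 60 counts in Th17, 28 in Treg, 12 in Th0 and 68 in naive cells and was 3.33-fold higher (1.77 to 6.80) in Th17 than in Th0, on few counts. It was 4.04-fold lower (2.17 to 8.20) in Th0 than in naive cells. Within a library the ratio of Txnrd1 to Txn1 in FPKM, which no scaling between libraries affects, was 0.316 in Th17, 0.256 in Treg, 0.0896 in Th0 and 0.343 in naive cells. Its counting interval in Th0, 0.0819 to 0.0978, lay below those of the other 3 libraries, which began at 0.295 in Th17, 0.236 in Treg and 0.315 in naive cells.

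Txnip (chromosome 3, 96557957 to 96561883) encodes a protein that binds thioredoxin and restrains glucose uptake, and its transcript responds to glucose. It had 122 CPM in Th17, 339 in Treg, 297 in Th0 and 479.8 in naive cells. Th17 was the low library, and the gene was 2.78-fold lower (2.62 to 2.95) in Th17 than in Treg. This was the 1 member called between these cultures, and it met the rule under all 4 scalings. Txnip was 2.44-fold lower (2.29 to 2.59) in Th17 than in Th0 under 3 of 4 scalings, and 3.94-fold lower (3.72 to 4.16) than in naive cells. Its log2 ratios in Treg were 0.19 over Th0 and -0.50 over naive, and in Th0 over naive -0.69, so no comparison without the Th17 library called it. The ratio of Txnip to Txn1 in FPKM was 0.154 in Th17, 0.420 in Treg, 0.179 in Th0 and 0.897 in naive cells.

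Glrx, the cytosolic glutaredoxin, which removes glutathione from protein cysteines, had 15.3 CPM in Th17, 22.5 in Treg, 58.5 in Th0 and 34.9 in naive cells. Th17 and Treg lay below both other libraries. Glrx was 3.82-fold lower (3.24 to 4.52) in Th17 than in Th0 under all 4 scalings, and 2.60-fold lower (2.23 to 3.03) in Treg under 3 of 4. Over naive cells it was 2.28-fold lower (1.93 to 2.71) in Th17, while its log2 ratio in Treg was -0.61 (interval -0.86 to -0.40).

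**Figure D4:**
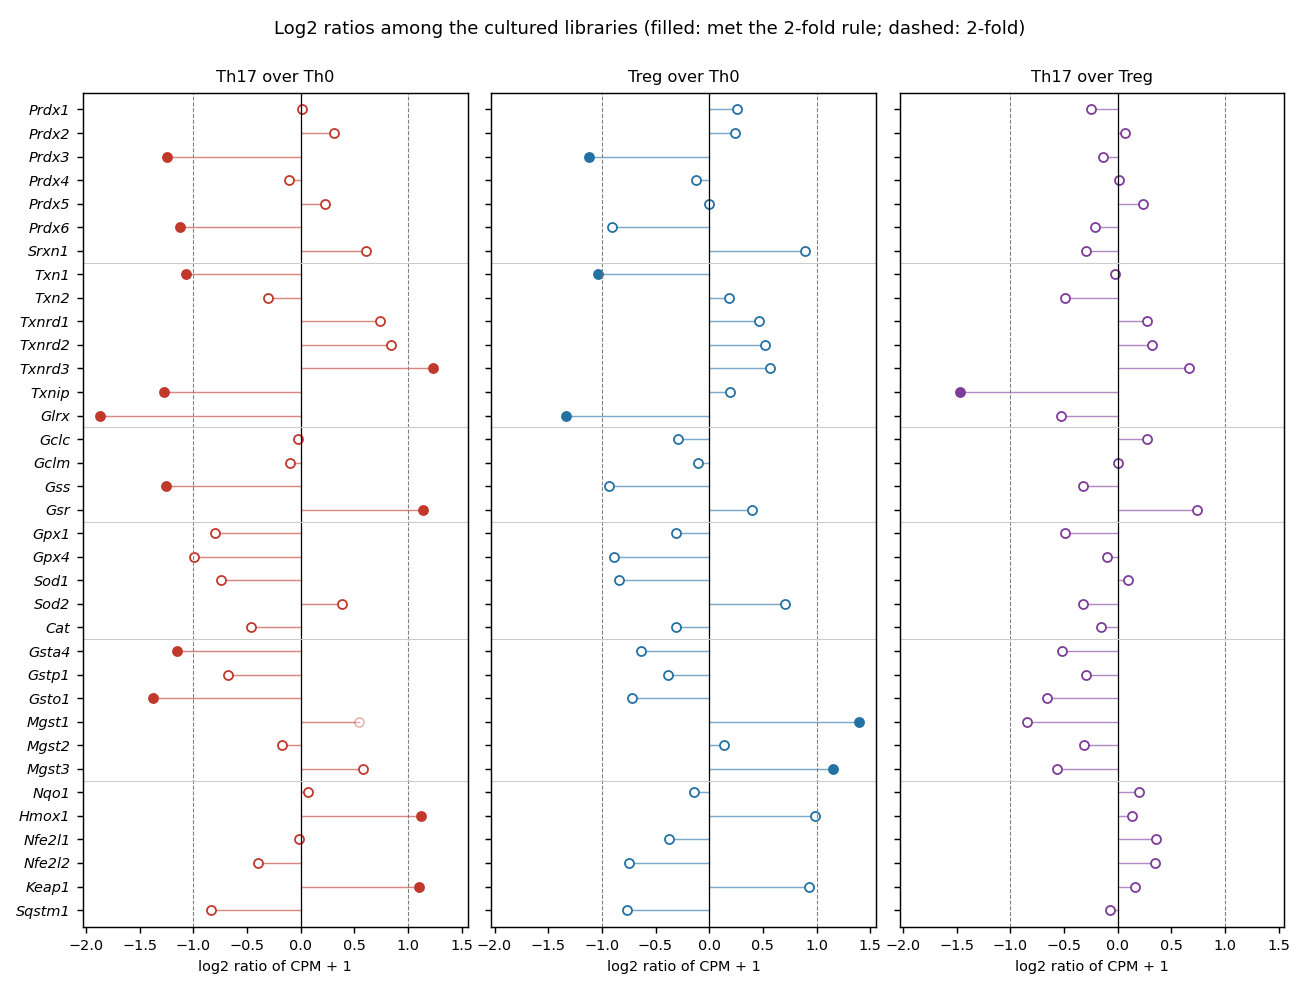
Log2 ratio of CPM + 1 (x axis) of each member for the 3 pairs of cultures (Th17 and Treg each over Th0, and Th17 over Treg), with genes in rows grouped by role and 1 library on each side of a ratio. Filled points met the 2-fold rule, and the faint point had too few counts to be tested. In Th17 over Treg the only filled point is Txnip at -1.47.

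In glutathione synthesis, the first and the second step differed in their order of libraries. Gclc (chromosome 9, 77754535 to 77794485) had 38.4 CPM in Th17, 31.7 in Treg, 39.0 in Th0 and 76.8 in naive cells, and Gclm had 10.6 CPM in Th17, 10.6 in Treg, 11.4 in Th0 and 30.9 in naive cells. Naive cells were highest for both subunits and the cultures lay close together. Gclm was 2.92-fold lower (2.40 to 3.57) in Th17, 2.93-fold lower (2.38 to 3.64) in Treg and 2.70-fold lower (2.16 to 3.40) in Th0 than in naive cells. Gclc was 2.43-fold lower (2.15 to 2.75) in Treg, with log2 ratios over naive of -0.98 in Th17 and -0.96 in Th0, called lower under 1 of the 4 scalings in Th17 and 2 in Th0. The ratio of Gclm to Gclc in FPKM was 0.114 in Th17, 0.138 in Treg, 0.121 in Th0 and 0.167 in naive cells.

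Gss, glutathione synthetase (chromosome 2, 155563181 to 155592810), had 31.6 CPM in Th17, 39.9 in Treg, 76.9 in Th0 and 12.7 in naive cells. Here naive cells were lowest and Th0 highest. It was 2.48-fold higher (2.06 to 3.00) in Th17, 3.13-fold higher (2.60 to 3.78) in Treg and 6.04-fold higher (5.07 to 7.24) in Th0 than in naive cells, and 2.43-fold lower (2.15 to 2.76) in Th17 than in Th0 under 3 of 4 scalings. The log2 ratio in Treg over Th0 was -0.93 (interval -1.13 to -0.77), called lower under 1 of the 4. Gss overlaps Acss2 on the opposite strand, with 418 counts in Th17, 444 in Treg, 277 in Th0 and 654 in naive cells.

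Gsr, glutathione reductase (chromosome 8, 33652523 to 33698163), had 53.6 CPM in Th17, 31.7 in Treg, 23.8 in Th0 and 105 in naive cells, and all 4 libraries differed from each other beyond counting error. It was 2.25-fold higher (1.93 to 2.64) in Th17 than in Th0 under all 4 scalings. Its log2 ratio in Th17 over Treg was 0.74 (interval 0.57 to 0.95), under 2-fold. Compared with naive cells, Gsr was 3.32-fold lower (2.95 to 3.74) in Treg and 4.41-fold lower (3.81 to 5.13) in Th0, and in Th17 its log2 ratio was -0.96 (interval -1.10 to -0.84).

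The glutathione peroxidases gave opposite orders. Gpx1 (chromosome 9, 108338903 to 108340343), the abundant peroxidase for soluble peroxides, had 52.1 CPM in Th17, 73.7 in Treg, 91.2 in Th0 and 328 in naive cells. Gpx4 (chromosome 10, 80047166 to 80056439), which reduces lipid peroxides in membranes, had 74.0 CPM in Th17, 79.5 in Treg, 148 in Th0 and 30.6 in naive cells. Naive cells were thus highest for Gpx1 and lowest for Gpx4. Over naive cells, Gpx1 was 6.28-fold lower (5.79 to 6.83) in Th17, 4.45-fold lower (4.12 to 4.80) in Treg and 3.59-fold lower (3.33 to 3.88) in Th0. Gpx4 was 2.42-fold higher (2.14 to 2.73) in Th17, 2.60-fold higher (2.30 to 2.94) in Treg and 4.85-fold higher (4.32 to 5.45) in Th0. Within a library, the FPKM ratio of Gpx1 to Gpx4 was 0.579 in Th17, 0.762 in Treg, 0.506 in Th0 and 8.80 in naive cells. Its counting interval was 7.91 to 9.80 in naive cells and did not reach above 0.839 in any culture. The size of this ratio depends on the gene lengths behind the FPKM, but its fold change between libraries does not. Gpx1 is abundant in many blood cells, and the part of the macrophage, neutrophil and erythroid transcripts of the naive library in this ratio was not tested. Among the cultures, the log2 ratio of Gpx4 was -0.99 in Th17 and -0.89 in Treg over Th0, just under the rule, and 1 of the 4 scalings called it lower in Th17.

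Sod1, the cytosolic superoxide dismutase, had 171 CPM in Th17, 159.8 in Treg, 287 in Th0 and 116 in naive cells, and it was 2.47-fold higher (2.31 to 2.63) in Th0 than in naive cells. Sod2, the mitochondrial form, had 68.1 CPM in Th17, 85.2 in Treg, 51.9 in Th0 and 51.8 in naive cells. It was not called with TMM in any comparison, and in Treg over Th0 it was called higher under 1 of the 4 scalings. The FPKM ratio of Sod1 to Sod2 was 14.9 in Th17, 11.1 in Treg, 32.8 in Th0 and 13.3 in naive cells, so Th0 had the widest gap between them. Cat, which encodes the peroxisomal catalase, had 64.5 CPM in Th17, 72.05 in Treg, 89.4 in Th0 and 143 in naive cells, and all 4 libraries differed from each other beyond counting error. Cat was 2.21-fold lower (2.03 to 2.40) in Th17 than in naive cells, and its log2 ratios over naive were -0.98 in Treg, called lower under 1 of the 4 scalings, and -0.67 in Th0.

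**Figure D5:**
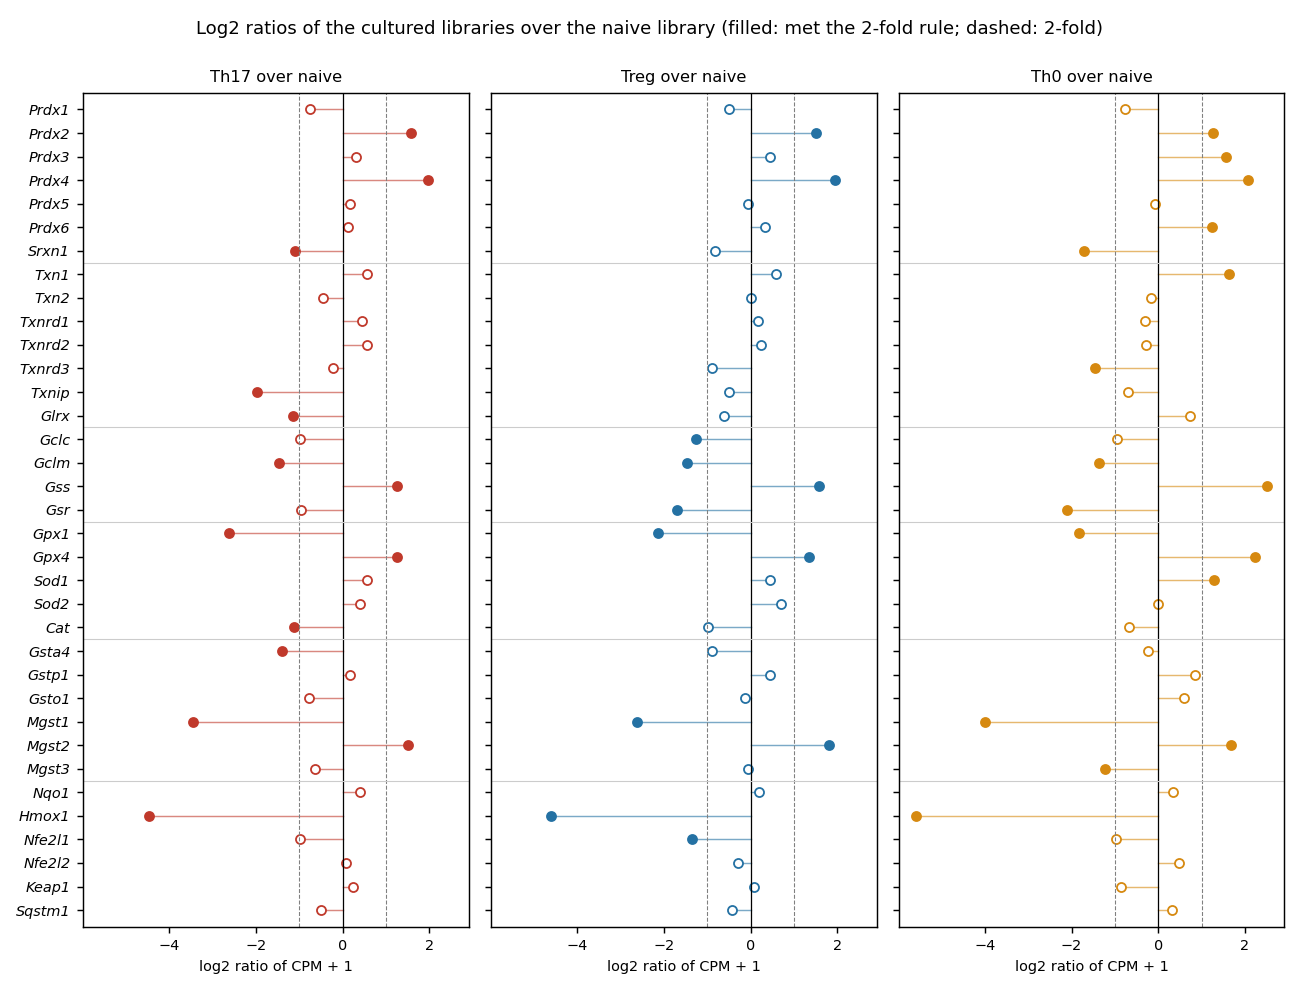
Log2 ratio of CPM + 1 (x axis) of each member for Th17, Treg and Th0 over naive cells, with genes in rows grouped by role and 1 library on each side of a ratio. Filled points met the 2-fold rule, and the 3 panels share the naive library. Prdx2, Prdx4, Gss, Gpx4 and Mgst2 are filled to the right in each panel, and Gclm, Gpx1, Mgst1 and Hmox1 to the left.

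Of the glutathione transferases, Mgst2, a microsomal enzyme that also makes leukotriene C4, had 103 CPM in Th17, 128 in Treg, 117 in Th0 and 35.8 in naive cells. It was 2.87-fold higher (2.58 to 3.21) in Th17, 3.58-fold higher (3.21 to 3.99) in Treg and 3.26-fold higher (2.91 to 3.65) in Th0 than in naive cells. An overlapping entry on the same strand, Gm37261, had 395 counts in Th17, 386 in Treg, 195 in Th0 and 104 in naive cells. Mgst1, a microsomal transferase of liver and myeloid cells, had 6 counts in Th17, 18 in Treg, 0 in Th0 and 184 in naive cells. It was 32.9-fold lower (14.8 to 90.7) in Th17, 9.26-fold lower (5.70 to 16.0) in Treg and at least 43.7-fold lower (counting limit 35.2) in Th0 than in naive cells. Against Th17 and Th0 it passed the count filter only through naive cells. The neutrophil gene S100a8 followed the same side, with 1.22 CPM in Th17, 0.812 in Treg, 0 in Th0 and 191 in naive cells, and its part in the Mgst1 level was not tested. Mgst1 was also at least 4.73-fold higher (counting limit 3.46) in Treg than in Th0, on 18 counts in Treg and 0 in Th0. Here it passed the count filter only through Treg, so it could hardly be called lower. Mgst3 was 2.98-fold higher (1.63 to 5.82) in Treg than in Th0, on 53 and 14 counts. It was 3.16-fold lower (1.75 to 6.11) in Th0 than in naive cells. By FPKM, Mgst2 made up 87.7% in Th17, 83.8% in Treg, 93.8% in Th0 and 46.9% in naive cells of the 3 microsomal forms.

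Gsto1, an omega-class transferase that also reduces dehydroascorbate, had 23.4 CPM in Th17, 37.4 in Treg, 62.3 in Th0 and 41.0 in naive cells and was 2.66-fold lower (2.31 to 3.07) in Th17 than in Th0 under all 4 scalings. In Treg its log2 ratio over Th0 was -0.72 (interval -0.92 to -0.55). Gsta4, which conjugates the lipid peroxidation product hydroxynonenal, had 15 counts in Th17, 23 in Treg, 33 in Th0 and 57 in naive cells. In Th17 it was 3.31-fold lower (1.75 to 6.55) than in Th0, under 3 of 4 scalings, and 4.07-fold lower (2.27 to 7.74) than in naive cells. Gstp1, the pi-class transferase, had 53.4 CPM in Th17, 65.6 in Treg, 86.2 in Th0 and 47.6 in naive cells and was called in no comparison. Its near-identical copies are Gstp2 and the pseudogene entry Gstp-ps.

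Levels of different genes were compared per length, in the deposited FPKM, which is scaled to library totals. The lengths behind this FPKM exceeded the whole locus for some members. They were 3412 nt for Gpx1 (108338903 to 108340343) and 6915 nt for Txnip (96557957 to 96561883). Ranks and shares between genes depend on these lengths and are uncertain. Sod1 was the highest member in Th17, Treg and Th0 and the second in naive cells, with 279.9 FPKM in Th17, 267 in Treg, 378 in Th0 and 185 in naive cells. Txn1 came second in the 3 cultures, with 121 FPKM in Th17, 126 in Treg, 204 in Th0 and 79.6 in naive cells, and Gstp1 was at rank 3 there, with 74.6 FPKM in Th17, 93.8 in Treg, 96.8 in Th0 and 64.7 in naive cells. In naive cells Hmox1 was first, with 12.04 FPKM in Th17, 11.2 in Treg, 4.29 in Th0 and 267 in naive cells, and Gpx1 was at rank 3, with 16.1 FPKM in Th17, 23.3 in Treg, 22.7 in Th0 and 98.8 in naive cells. Summed over the 35 members, FPKM was 944 in Th17, 1018 in Treg, 1202 in Th0 and 1198 in naive cells. Hmox1 held 22.3% of the naive sum, and at most 1.28% in a culture.

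The library with the highest level differed among the members. Th17 was highest for 6 members (Prdx2, Prdx5, Txnrd1, Txnrd2, Nqo1 and Keap1) and lowest for 8 (Txn2, Txnip, Gpx1, Cat, Glrx, Gsta4, Gsto1 and Sqstm1). Treg was highest for 3 and lowest for 5, Th0 was highest for 12 and lowest for 10, and naive was highest for 14 and lowest for 12. These counts take no account of counting error. All neighbouring libraries in the order of levels differed beyond it for Txnrd1, Txnip, Gpx1, Gss, Gsr, Sod1, Cat, Glrx, Gstp1 and Mgst2, and none did for Nqo1. Within a library, the FPKM ratio of Keap1 to Nfe2l2 was 0.452 in Th17, 0.513 in Treg, 0.157 in Th0 and 0.401 in naive cells, lowest in Th0. The part of reads of the antisense gene Gm16754 in this ratio was not tested.

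The wider pathway was read from 9 lists of 144 further genes, of which 142 were in the table. In Th17 over Th0, 25 of the 115 tested were higher (21.7%, against 20.1% of all genes) and 12 lower (10.4%, against 12.4%), so the lists together lay near the background. In cystine uptake and glutathione turnover, 6 of 16 were higher and 2 lower. Of the 6, Slc7a11 (41 counts in Th17, 2 in Th0) and Chac2 (39 and 5) passed the count filter only through Th17, so they could hardly be called lower. Chac1, which degrades glutathione, had 19.6 CPM in Th17, 10.01 in Treg, 1.49 in Th0 and 1.80 in naive cells and was 13.2-fold higher (7.56 to 25.1) in Th17 than in Th0. Slc7a11, the cystine transporter, had 3.12 CPM in Th17, 2.43 in Treg, 0.229 in Th0 and 3.67 in naive cells and was 13.6-fold higher (3.54 to 116) on 41 counts in Th17 and 2 in Th0. In NADPH supply, 4 of 14 were higher and 0 lower, namely Pgd, Me2, Mthfd1 and Aldh1l2. Pgd, of the pentose phosphate pathway, was 2.14-fold higher (1.90 to 2.42). Of methionine sulfoxide reductases and sestrins, 3 of 10 were higher and 1 lower. Sesn2, a sestrin induced by stress, had 154 CPM in Th17, 134 in Treg, 44.2 in Th0 and 28.4 in naive cells, while Sesn1 had 32.1 CPM in Th17, 49.1 in Treg, 118 in Th0 and 122 in naive cells.

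In the same comparison, 4 of 23 Nrf2 partners, repressors and further targets were higher and 3 were lower. Bach1, a repressor that competes with Nrf2, had 22.2 CPM in Th17, 20.8 in Treg, 70.8 in Th0 and 69.8 in naive cells and was 3.19-fold lower (2.77 to 3.68) in Th17 than in Th0. Ephx1, the microsomal epoxide hydrolase, had 63.7 CPM in Th17, 77.9 in Treg, 183 in Th0 and 104 in naive cells. Abcc4, an efflux pump, had 27.6 CPM in Th17, 21.4 in Treg, 7.44 in Th0 and 51.9 in naive cells. The other thioredoxin and glutaredoxin fold genes had 0 of 14 higher and 3 lower, with Txnl1 at 92.4 CPM in Th17, 89.1 in Treg, 208 in Th0 and 53.1 in naive cells. Of other glutathione transferases, 2 of 12 were higher and 1 lower, and of other glutathione peroxidases and extracellular superoxide dismutase 1 of 3 was higher. This 1, Gpx8 (34 counts in Th17, 1 in Th0), and the transferase Ptges (60 and 5) passed the count filter only through Th17. Of selenoprotein genes, 2 of 15 were higher and 2 lower, with Sepp1, the plasma selenium carrier, at 57.4 CPM in Th17, 66.9 in Treg, 206 in Th0 and 449.7 in naive cells. Of the sources of superoxide, 3 of 8 were higher and 0 lower. The 3 were Nos2 and the phagocyte oxidase genes Cybb and Ncf4. Nos2 (274 counts in Th17, 0 in Th0) passed the count filter only through Th17, so it could hardly be called lower. Among marker genes tested in the same comparison, 2 of 6 of macrophages and monocytes, 3 of 4 of red pulp macrophages, 3 of 4 of neutrophils and 3 of 4 of dendritic cells were higher, beside 20.1% of all genes. Several passed the count filter only through Th17, such as Cd5l (44 counts in Th17, 0 in Th0) and S100a8 (16 and 0), so they could hardly be called lower. Only 4 of 10 neutrophil and 4 of 8 dendritic cell genes were tested. Of B cell and plasma cell genes, 1 of 10 was higher and 5 were lower. The part of these cells was not tested. Nos2, the inducible nitric oxide synthase among the sources of superoxide, had 20.9 CPM in Th17, 8.30 in Treg, 0 in Th0 and 0 in naive cells, and was at least 60.8-fold higher (counting limit 49.1) in Th17 and at least 24.2-fold higher (counting limit 19.3) in Treg than in Th0.

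In Treg over Th0, 22 of 115 pathway genes were higher and 15 lower (19.1% and 13.0%, against 20.2% and 12% of all genes). In Th17 over Treg 4 were higher and 2 lower (3.48% and 1.74%, against 1.91% and 1.24%). In Th17 over naive, 25 of 120 were higher and 25 lower (20.8% each, against 15.5% and 17.7%). In Treg over naive, 20 of 120 were higher and 23 lower (16.7% and 19.2%, against 14.9% and 16.9%), and in Th0 over naive 21 of 117 were higher and 26 lower (17.9% and 22.2%, against 18.5% and 27.2%). Among NADPH supply genes in Th0 over naive, 3 of 14 were higher and 6 lower, beside 18.5% and 27.2% of all genes, with Mthfd2, a mitochondrial folate enzyme, at 243 CPM in Th17, 184 in Treg, 259 in Th0 and 50.8 in naive cells, and Pgd at 88.3 CPM in Th17, 85.1 in Treg, 41.2 in Th0 and 141 in naive cells. Cth, which makes cysteine from cystathionine, had 0 counts in naive cells and was at least 29.6-fold higher (counting limit 23.6) in Th17, at least 25.03-fold higher (counting limit 19.8) in Treg and at least 39.7-fold higher (counting limit 31.6) in Th0. The theta-class transferase Gstt2 had 60.1 CPM in Th17, 46.9 in Treg, 64.7 in Th0 and 8.90 in naive cells. Cybb, the catalytic subunit of the phagocyte oxidase, had 8.23 CPM in Th17, 8.21 in Treg, 2.86 in Th0 and 293 in naive cells, on the same side as the macrophage and neutrophil genes. In the Nrf2 list, 4 of 25 were higher and 9 lower in Th17 over naive (15.5% and 17.7% of all genes), 4 higher and 8 lower in Treg (14.9% and 16.9%), and 3 higher and 5 lower in Th0 (18.5% and 27.2%). Nqo2, a relative of Nqo1, had 1.37 CPM in Th17, 3.79 in Treg, 2.40 in Th0 and 16.2 in naive cells, and Nfe2, a related factor of erythroid cells and platelets, had 0 CPM in Th17, 0.271 in Treg, 0.114 in Th0 and 10.4 in naive cells. Of the methionine sulfoxide reductases and sestrins, 2 of 10 were higher and 3 lower in Th17 over naive, beside the same 15.5% and 17.7%. Aifm2, which protects membranes from lipid peroxidation beside Gpx4, had 14.7 CPM in Th17, 11.4 in Treg, 6.53 in Th0 and 2.37 in naive cells, and Msrb1, a selenium-dependent methionine sulfoxide reductase, had 16.0 CPM in Th17, 20.3 in Treg, 18.4 in Th0 and 59.1 in naive cells. Among thioredoxin and glutaredoxin fold genes, Glrx3, an iron-sulfur glutaredoxin, had 102 CPM in Th17, 100.1 in Treg, 189 in Th0 and 39.2 in naive cells and was 4.81-fold higher (4.35 to 5.34) in Th0 than in naive cells.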

How the data were processed

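RNA was measured in 4 libraries with groups taken from the cell type in the labels. RNA came from TRIzol extraction and was sequenced on an Illumina HiSeq, per the labels' protocols. Bowtie2, RSEM, GRCm38.p6 and mm10 are named in the submitters' processing notes without versions or roles. No source used here gives the strand setting, read length or annotation. The authors deposited whole-number counts per gene and FPKM. The deposited FPKM was count over gene length and table total, and each of 8988 genes with 50 or more counts in every library had 1 length throughout (tolerance 0.1%). This check covers only that a length was constant, and for some members the length exceeded the whole locus. Of the members' loci, 27 of 35 matched GENCODE vM21 (GRCm38) exactly and 8 overlapped it.

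TMM factors (edgeR 4.0.16, R 4.3.3), from genes with at least 10 counts in 1 library, were 1.06 for Th17, 1.08 for Treg, 0.850 for Th0 and 1.03 for naive, so 1 count was worth 0.0762, 0.0902, 0.114 and 0.0817 CPM in the same order. Ratio intervals were exact conditional (Clopper-Pearson) and level intervals exact Poisson, at 95%. No molecular identifiers are given, so intervals cover counting error only. The log2 ratio of CPM + 1 understates the change of low genes. All 35 members were named, and of each pathway list up to 4 called genes with the largest ratios. The members and lists were chosen with earlier results of these data known, and the gene pairs, S100a8, Spic and Slc40a1 after their values were seen. A near-identical transcript was one aligned over at least 300 nt at 95% identity (minimap2). A planned motif search in the proteins was not run. Alternatives covered scaling (DESeq2 1.42.0, upper quartile, totals), pseudocount, count filter, FPKM and depth. Scripts ran under Python 3.11.15 with scipy 1.17.1, numpy 2.4.6, pandas 2.3.3, and figures used matplotlib 3.10.9.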

Additional observations from a re-analysis of the deposited data

How the results depend on the processing

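The counts of members called depended most on how the Th0 library was scaled. In Th17 over Th0, 8 members were lower, and 2 were with library totals or with the deposited FPKM. The 4 higher became 2 with a pseudocount of 5 CPM. In Treg over Th0, 2 members were higher, which became 6 with library totals, 4 with upper quartile scaling, 4 with a pseudocount of 0.25 CPM, 0 with 5 CPM, 1 with at least 50 counts and 4 with FPKM. The 3 lower became 0 with library totals, 1 with upper quartile scaling and 0 with FPKM. In Th17 over Treg, the 1 lower became 2 with a pseudocount of 0.25 CPM. In Th0 over naive, the 8 lower became 5 with 5 CPM. The other counts stayed within 1.5 times under these settings, under DESeq2 size factors, without a count filter and with libraries thinned to the smallest total. TMM factors without the naive library, chosen after seeing the data, left every count among the cultures within that range. No called member changed sign under any alternative. With library totals, 79.3% of all calls in Th17 over Th0 were higher, against 61.9% with TMM, 81.8% against 62.7% in Treg over Th0, and 29.6% against 40.5% in Th0 over naive. With upper quartile scaling these shares were 71.2%, 72.5% and 35.4%, and with FPKM 76.2%, 78.4% and 31.8%. No replicate could be left out, since each group had 1 library. No paired analysis was possible because each group had 1 library and the result comes from no test. Depth limits Nqo1, Srxn1, Txnrd3, Gsta4, Mgst1 and Mgst3, which had under 100 counts in at least 3 libraries.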

Other observations

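Gm16754, annotated as antisense to Keap1, had 1270 counts in Th17, 429 in Treg, 41 in Th0 and 2 in naive cells. Its count in Th17 was of similar size to that of Keap1, which had 1204 counts in Th17, 907 in Treg, 370 in Th0 and 952 in naive cells. Both fell from Th17 to Treg to Th0 among the cultures. In naive cells Gm16754 was near 0 while Keap1 was not. Rnaseh2a, opposite to Prdx2, had 456 counts in Th17, 437 in Treg, 133 in Th0 and 221 in naive cells. These genes were picked out after their values were seen.

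The following genes were likewise chosen after their values were seen. Trim16, an E3 ligase linked to the Nrf2 response, had 20.3 CPM in Th17, 30.6 in Treg, 6.53 in Th0 and 1.80 in naive cells, and Mafg, a small Maf partner of Nrf2, had 112 CPM in Th17, 90.7 in Treg, 51.4 in Th0 and 41.1 in naive cells. Ftl1, the ferritin light chain, had 463 CPM in Th17, 323 in Treg, 893 in Th0 and 1291 in naive cells. Others of the Nrf2 list were scarce, such as Pir, with 0.0762 CPM in Th17, 0 in Treg, 0.114 in Th0 and 0.408 in naive cells, and Cbr3, with 0.229 CPM in Th17, 0.271 in Treg, 0 in Th0 and 3.10 in naive cells. Xdh, xanthine dehydrogenase, had 15.5 CPM in Th17, 47.8 in Treg, 15.6 in Th0 and 91.0 in naive cells, and it was 3.09-fold lower (2.62 to 3.65) in Th17 than in Treg, where Txnip was the only antioxidant member called.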
